A study of Danio rerio with 6 samples.

Results

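The genes described here are the 8 zebrafish genes for the chains of type I and type V collagen, col1a1a, col1a1b, col1a2, col5a1, col5a2a, col5a2b, col5a3a and col5a3b. They were taken by symbol from a table of read counts per transcript, and for each gene the transcript with the most reads over the 6 libraries was kept. They are 8 of 30841 symbols kept from that table, reporter transgenes included. All 8 were found, and all 8 had enough reads to enter the tests: 3 encode type I chains and 5 encode type V chains.

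Collagens are triple helices of α chains, and the fibrillar types line up into the banded fibrils of bone, dermis and tendon. Type I is the bulk collagen of bone, where osteoblasts lay it down as the organic matrix that later mineralises. In mammals its helix holds a pair of α1(I) chains and an α2(I) chain, while bony fish have a further type I chain, α3(I), which is the RefSeq synonym of col1a1b. The synonyms of col1a1a and col1a2 are α1(I) and α2(I). Type V collagen is a minor partner of type I. In mammals it is built into the same fibrils, where it helps to start fibrils and limits their width, and its commonest form pairs α1(V), from COL5A1, with α2(V), from COL5A2. The α3(V) chain, from COL5A3, has a narrower distribution in mammals, and the chains of type XI are close relatives that can share a helix with α1(V) or α2(V). Zebrafish have 2 genes each for α2(V) and α3(V).

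RNA was sequenced from cells sorted by fluorescence out of regrowing caudal fins of adult zebrafish, 14 days after amputation, to ask how fin mesenchyme and bone-forming cells are related by lineage. The 3 groups were Osteoblast, titled EGFP-/sp7+, OMP (osteogenic mesenchymal progenitors), titled EGFP+/sp7+, and CMP (chondrogenic mesenchymal progenitors), titled EGFP+/sp7-, with 2 libraries each. All fish carried the same transgenes on a background derived from the Tubingen strain. These were sox9a:Cre-ERt2 together with cryaa:EGFP, Ola.Actb:loxp-TagBFP-loxp-EGFP and Ola.Sp7:mCherry, so EGFP marks cells in which the Cre driven by sox9a has acted, and mCherry reports sp7, the osteoblast transcription factor osterix. The labels do not say that the 2 libraries of a group came from different fish, so p-values measure the spread between these libraries, which may be technical. Because each library is a pool of cells, a fall in a gene's RNA could reflect fewer cells that make it or less RNA in each cell, and these cannot be told apart.

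The kept transcripts held 3915569 to 5281898 reads per library. Reads of the reporters did not all follow the titles. EGFP RNA was at 873 ± 109 CPM (read counts scaled to library size by the TMM method) in Osteoblast, titled EGFP-, at 999 ± 165 CPM in OMP and at 836 ± 45.7 CPM in CMP (SD, n = 2 each). The libraries held 2455 and 8136 mCherry reads in Osteoblast, 6 and 62 in OMP, titled sp7+, and 3 and 47 in CMP. For sp7 itself the levels were 168 ± 9.87 CPM in Osteoblast, 9.42 ± 1.38 CPM in OMP and 2.08 ± 0.133 CPM in CMP. By these reads OMP lay close to CMP in mCherry and far below Osteoblast in both mCherry and sp7. Between OMP and CMP, sp7 was higher in OMP (log2 fold change 2.14 ± 0.42, edgeR adjusted p = 0.0314), a call lost without any 1 of the 6 libraries, at adjusted p up to 0.246. The short names of the libraries in the labels are Ob-GR for Osteoblast, Ob-G for OMP and Mes-G for CMP, and the labels do not spell these out. The short name of Osteoblast holds a G although its title says EGFP-, so which sort gate each group came from carries this doubt, and the groups here follow the titles. The 8 osteoblast markers summed to 196864 and 255448 CPM in Osteoblast, 5172 and 4027 CPM in OMP and 833 and 756 CPM in CMP, and 8 of 8 were higher in Osteoblast than in each other group. Cartilage markers summed to 362 and 329 CPM in Osteoblast, 408 and 514 CPM in OMP and 3714 and 4226 CPM in CMP, and nearly all of this was 1 gene, hapln1a, at 349 and 321 CPM, 395 and 502 CPM, and 3656 and 4182 CPM in the same groups. The defining cartilage genes acana, acanb, matn1 and col2a1a had too few reads to be tested. Of the 3 tested, sox9a and hapln1a were called lower in OMP and in Osteoblast than in CMP, and col9a1a was called in no comparison. The log2 fold change of sox9a was -2.37 ± 0.43 in OMP against CMP (edgeR adjusted p = 0.0231). In Osteoblast against CMP it was -2.23 ± 0.44 (edgeR adjusted p = 0.00855). Epidermal markers summed to 1366 to 1433 CPM in Osteoblast, 3549 to 3936 CPM in OMP and 6523 to 6914 CPM in CMP, and mural cell markers to 49.0 to 110 CPM, 203 to 289 CPM and 397 to 547 CPM in the same 3 groups. The epidermal sum was mostly krt4, and only krt4 and krt15 of its 7 genes were called lower in Osteoblast than in the other groups. Of the 5 mural genes, acta2, tagln and rgs5a were called lower in Osteoblast than in OMP. Against CMP these and myh11a were called lower in Osteoblast, and acta2 alone in OMP. Osteoclast markers summed to 186 to 211 CPM in Osteoblast, 305 to 393 CPM in OMP and 240.3 to 248 CPM in CMP. Of these 4 genes only ctsk had enough reads to be tested, and it was called in no comparison. The others, acp5a, csf1ra and calcr, had too few reads. Summed leukocyte, endothelial, nerve, muscle, erythrocyte and pigment markers reached at most 40.2 CPM in any library. Of these lists mpeg1.1, cdh5, elavl3 and myhz2 had 0 reads, while other genes of the same lists had reads. Only plp1b of the nerve list was called, lower in Osteoblast than in CMP (log2 fold change -3.70 ± 1.05, edgeR adjusted p = 0.0413). The part of these other cells in the collagen results was not tested. Heat shock genes took 12.1% and 6.24% of reads in Osteoblast, 15.9% and 6.45% in OMP and 14.3% and 9.75% in CMP, so the libraries numbered 1 were higher in each group.

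Together the 8 collagen genes took 11.3% and 11.5% of the reads of the kept transcripts in Osteoblast, 10.0% and 10.6% in OMP and 4.07% and 4.06% in CMP. Most of this was type I, which alone took 10.6% and 11.03% of those reads in Osteoblast, 8.82% and 9.58% in OMP and 3.12% and 3.36% in CMP. The type V genes moved differently from one another. In Osteoblast the α2(V) RNA came mostly from col5a2b, while in OMP and CMP it came almost wholly from col5a2a. RNA of col5a3b and col5a1 was lower in Osteoblast than in both other groups, while in the type V total per kilobase Osteoblast overlapped both other groups and both OMP libraries lay above both CMP libraries.

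Differences between groups were tested with edgeR's quasi-likelihood test over all 13399 genes with enough reads, and a gene was called at a two-sided Benjamini-Hochberg adjusted p under 0.05. In Osteoblast against OMP, 2 of the 8 genes were higher and 3 were lower, against 3.22% of all tested genes higher and 4.90% lower. For Osteoblast against CMP, 4 were higher and 3 lower, against 4.55% and 6.08% of all tested genes. With OMP set against CMP, 3 were higher and 0 lower, against 0.955% and 0.933% of all tested genes. Counted in either direction, the calls were 5, 7 and 3 of 8 genes, beside 8.11%, 10.6% and 1.89% of all genes in the same 3 comparisons. For the 0 lower in OMP against CMP, DESeq2 also called 0, and 1 of the 8, col5a3a, was lower at an unadjusted p of 0.0143 from edgeR's test across all genes. The median log2 fold change of the 8 genes was -0.32, 0.14 and 1.30 in these comparisons, beside -0.03, -0.02 and 0.02 over all genes tested. The 3 comparisons share libraries, so they are not independent of each other.

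**Figure D1:**
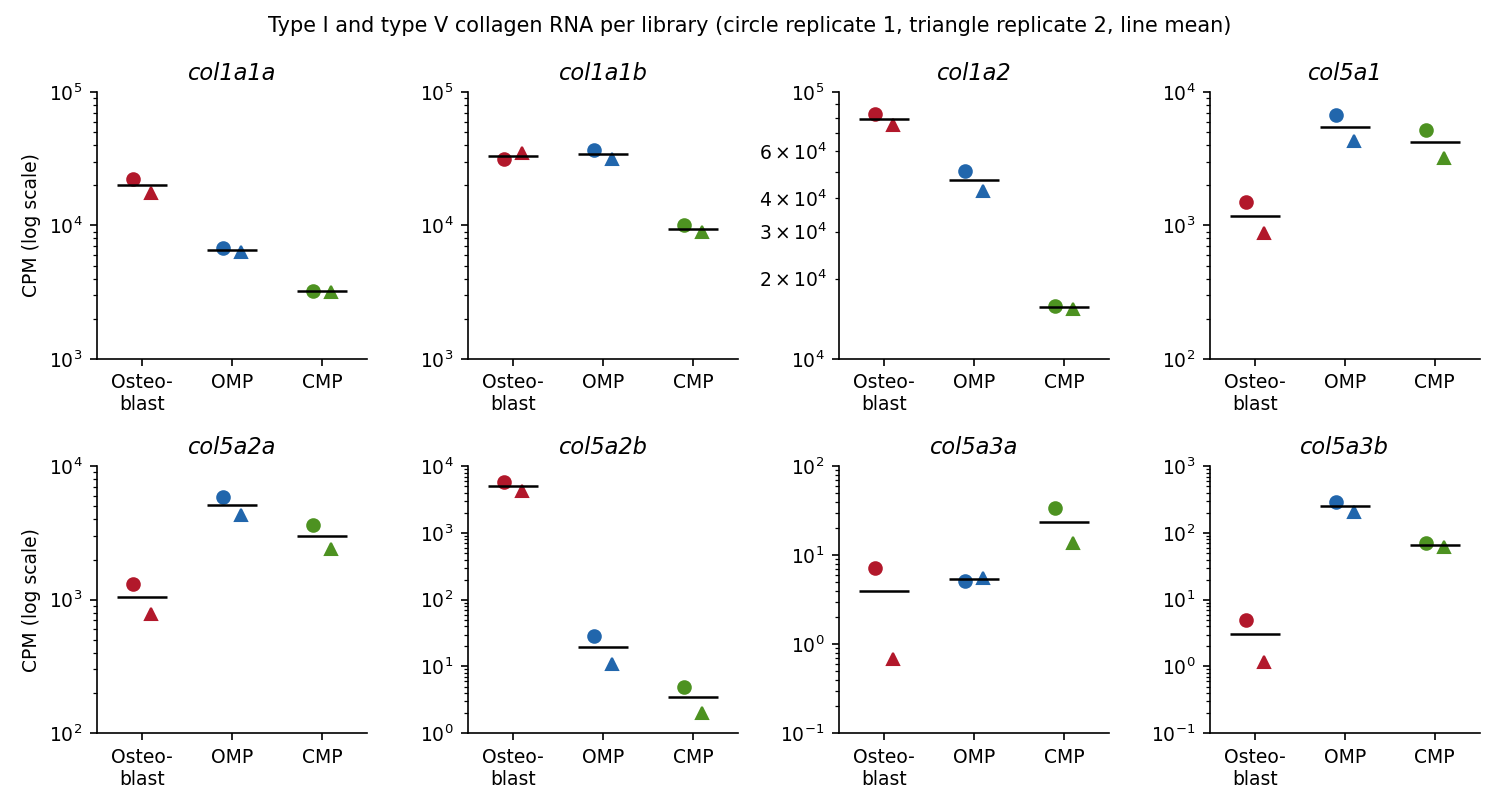
Level of each of the 8 genes in each library, in TMM-scaled CPM on a log axis, for Osteoblast, OMP and CMP from left to right in each panel. Circles are the libraries numbered 1, triangles those numbered 2 and lines the means of 2 libraries. The axes differ between panels. col5a2b sits at 5901 and 4191 CPM in Osteoblast and under 30 CPM in every OMP and CMP library, while col5a3b sits under 5 CPM in Osteoblast and between 61.6 and 295 CPM in the other groups.

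Among the type I genes, col1a2, which encodes the α2(I) chain, gave the most RNA. It had 82649 and 75428 CPM in Osteoblast, 50789 and 42659 CPM in OMP and 15844 and 15346 CPM in CMP. The 3 groups did not overlap, and in both Osteoblast and OMP the gene ranked first or second of all genes by reads. Its level was 5.07-fold higher in Osteoblast than in CMP (log2 fold change with its SE of 2.34 ± 0.27, edgeR adjusted p = 3.59e-04). OMP was 3.00-fold above CMP (log2 fold change 1.58 ± 0.26, edgeR adjusted p = 0.0143), a call lost when either CMP library was left out, at adjusted p = 0.121 and 0.142. In Osteoblast against OMP the log2 fold change of 0.76 ± 0.26 did not pass (edgeR adjusted p = 0.122). Of 14 alternatives 2 called it and 12 did not. Among the 2 was the fit without the filter on low counts (edgeR adjusted p = 0.00818).

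The gene col1a1b, which encodes the α3(I) chain of fish, was at similar levels in Osteoblast and OMP. It had 31316 and 35119 CPM in Osteoblast, 37034 and 31691 CPM in OMP and 10064 and 8875 CPM in CMP. Osteoblast and OMP overlapped, and both lay above CMP. The log2 fold change was -0.05 ± 0.25 in Osteoblast against OMP (edgeR adjusted p = 0.972) and 1.81 ± 0.26 in Osteoblast against CMP (edgeR adjusted p = 0.00144). In OMP against CMP it was 1.86 ± 0.26 (edgeR adjusted p = 0.00883), and without one or the other CMP library that adjusted p was 0.0708 and 0.106.

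For col1a1a, which encodes the α1(I) chain, the highest level was in Osteoblast alone. It had 22362 and 17601 CPM in Osteoblast, 6769.6 and 6291 CPM in OMP and 3236 and 3187 CPM in CMP. The groups were all separate. Osteoblast stood 3.06-fold above OMP (log2 fold change 1.61 ± 0.26, edgeR adjusted p = 0.00354) and 6.22-fold above CMP (log2 fold change 2.64 ± 0.27, edgeR adjusted p = 1.91e-04). In OMP against CMP the log2 fold change of 1.02 ± 0.26 missed the threshold (edgeR adjusted p = 0.0860). Of 14 alternatives 3 called it and 11 did not. Among the 3 were the fit without the filter on low counts (edgeR adjusted p = 0.00743) and DESeq2 (adjusted p = 0.0455).

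These unequal steps changed the make-up of type I RNA, measured in CPM per kilobase of transcript so that genes of different length can be compared. The col1a1a share of type I was 16.02% and 13.4% in Osteoblast, 7.05% and 7.68% in OMP and 10.9% and 11.4% in CMP. Conversely, col1a1b made up 21.8% and 26.1% of type I in Osteoblast, 37.5% and 37.6% in OMP and 33.0% and 30.9% in CMP. Each of the 2 shares was separate in all 3 groups, with OMP lowest for col1a1a and highest for col1a1b. Within the col1a1 pair col1a1a held 38.2 ± 5.89% in Osteoblast, 16.4 ± 0.799% in OMP and 25.9 ± 1.498% (SD, n = 2 each) in CMP. The share of col1a2 moved least, at 61.3 ± 1.19% in Osteoblast, 55.1 ± 0.563% in OMP and 56.9 ± 1.13% in CMP. The ratio of col1a1a plus col1a1b to col1a2 was 0.609 and 0.653 in Osteoblast, 0.802 and 0.828 in OMP and 0.783 and 0.733 in CMP, each per kilobase.

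The α1(V) chain comes from col5a1, and its RNA was lowest in Osteoblast. It had 1488 and 884 CPM in Osteoblast, 6675 and 4289 CPM in OMP and 5209 and 3194 CPM in CMP. Both Osteoblast libraries lay below the 4 others, and OMP and CMP overlapped. The gene was 4.62-fold lower in Osteoblast than in OMP (log2 fold change -2.21 ± 0.37, edgeR adjusted p = 0.00488) and 3.54-fold lower than in CMP (log2 fold change -1.83 ± 0.37, edgeR adjusted p = 0.0103). The call against CMP was lost without CMP library 1 (adjusted p = 0.0888) or Osteoblast library 2 (adjusted p = 0.0870). In OMP against CMP the log2 fold change was 0.38 ± 0.36 (edgeR adjusted p = 0.902), and without OMP library 1 it was -0.00023.

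The first of the α2(V) pair, col5a2a, followed col5a1 closely. It had 1302 and 781 CPM in Osteoblast, 5899 and 4295 CPM in OMP and 3609 and 2380.4 CPM in CMP. The groups did not overlap, and Osteoblast was again the lowest. The gene fell to 1041 ± 368 CPM in Osteoblast, against 5097 ± 1134 CPM in OMP (SD, n = 2 each; log2 fold change -2.29 ± 0.35, edgeR adjusted p = 0.00265). Against the 2995 ± 869 CPM of CMP the log2 fold change was -1.52 ± 0.34 (edgeR adjusted p = 0.0169), a call lost without CMP library 1 (adjusted p = 0.137) or Osteoblast library 2 (adjusted p = 0.150). For OMP against CMP it was 0.77 ± 0.34 (edgeR adjusted p = 0.447).

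The second α2(V) gene, col5a2b, ran the other way. It had 18035 and 18291 reads in Osteoblast, 105 and 68 in OMP and 22 and 12 in CMP, which corresponds to 5901 and 4191 CPM, 28.7 and 10.8 CPM, and 4.86 and 2.01 CPM in the same order. The lowest Osteoblast library was far above every other library, and OMP lay above CMP without overlap. Mean CPM was 255-fold higher in Osteoblast than in OMP (log2 fold change 8.03 ± 0.58, edgeR adjusted p = 4.37e-05) and 1470-fold higher than in CMP (log2 fold change 10.56 ± 0.66, edgeR adjusted p = 1.21e-05). Both calls held with each of the 6 libraries left out in turn, and the log2 fold changes over all alternatives ran from 7.45 to 8.90 and from 10.02 to 11.28. Between OMP and CMP the means differed 5.76-fold, with a log2 fold change of 2.53 ± 0.55 that did not pass the threshold (edgeR adjusted p = 0.0522). Of 14 alternatives 6 called it and 8 did not, with log2 fold changes from 1.67 to 3.26. The osteoblast marker sums given above follow the same order of groups, and the part of osteoblast RNA in the OMP and CMP values was not tested.

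As a share of α2(V) RNA per kilobase, col5a2b made up 83.8% and 85.9% in Osteoblast, 0.552% and 0.287% in OMP and 0.153% and 0.0960% in CMP. The groups did not overlap, and the mean share in Osteoblast exceeded that in OMP by 84.4 percentage points and that in CMP by 84.7. An exact permutation test of these shares gave p = 0.333 in each of the 3 comparisons (two-sided), the smallest p that 2 libraries against 2 allow. The sum of both α2(V) genes was 1299.9 and 900.1 CPM per kilobase in Osteoblast, 961 and 698 in OMP and 586 and 386 in CMP, so Osteoblast and OMP overlapped in the total although the copy in use differed.

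Of the α3(V) pair, col5a3b was a gene of the mesenchymal groups. It had 15 and 5 reads in Osteoblast, 1079 and 1297 in OMP and 318 and 368 in CMP, or 4.91 and 1.15 CPM, 295 and 207 CPM, and 70.22 and 61.6 CPM in the same order. All 3 groups were separate, with OMP the highest. The gene was 82.9-fold lower in Osteoblast than in OMP (log2 fold change -6.47 ± 0.54, edgeR adjusted p = 8.72e-05) and 21.8-fold lower than in CMP (log2 fold change -4.54 ± 0.53, edgeR adjusted p = 3.88e-04), and both calls held under all alternatives. In OMP it was 3.81-fold above CMP (log2 fold change 1.93 ± 0.40, edgeR adjusted p = 0.0426). That call was lost without CMP library 1 (adjusted p = 0.241), CMP library 2 (adjusted p = 0.321) or OMP library 1 (adjusted p = 0.165).

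The other α3(V) gene, col5a3a, was low in Osteoblast and OMP and higher in CMP. It had 22 and 3 reads in Osteoblast, 19 and 35 in OMP and 153 and 81 in CMP, or 7.20 and 0.687 CPM, 5.20 and 5.58 CPM, and 33.8 and 13.6 CPM in the same order. Both CMP libraries were the highest, and the Osteoblast libraries spanned those of OMP. None of its 3 comparisons passed, with edgeR adjusted p = 0.851 in Osteoblast against OMP, 0.0573 in Osteoblast against CMP and 0.234 in OMP against CMP. The log2 fold changes were -0.59 ± 0.87, -2.70 ± 0.78 and -2.11 ± 0.71. Osteoblast against CMP passed under some alternatives, with edgeR adjusted p = 0.0152 without the filter on low counts, 0.0435 without OMP library 2 and 0.0111 without Osteoblast library 1, where the log2 fold change was -5.03, and with DESeq2 adjusted p = 0.0226. Without Osteoblast library 2, which held 3 reads, the log2 fold change of Osteoblast against OMP became 0.43, so no direction between these groups was detectable.

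**Figure D2:**
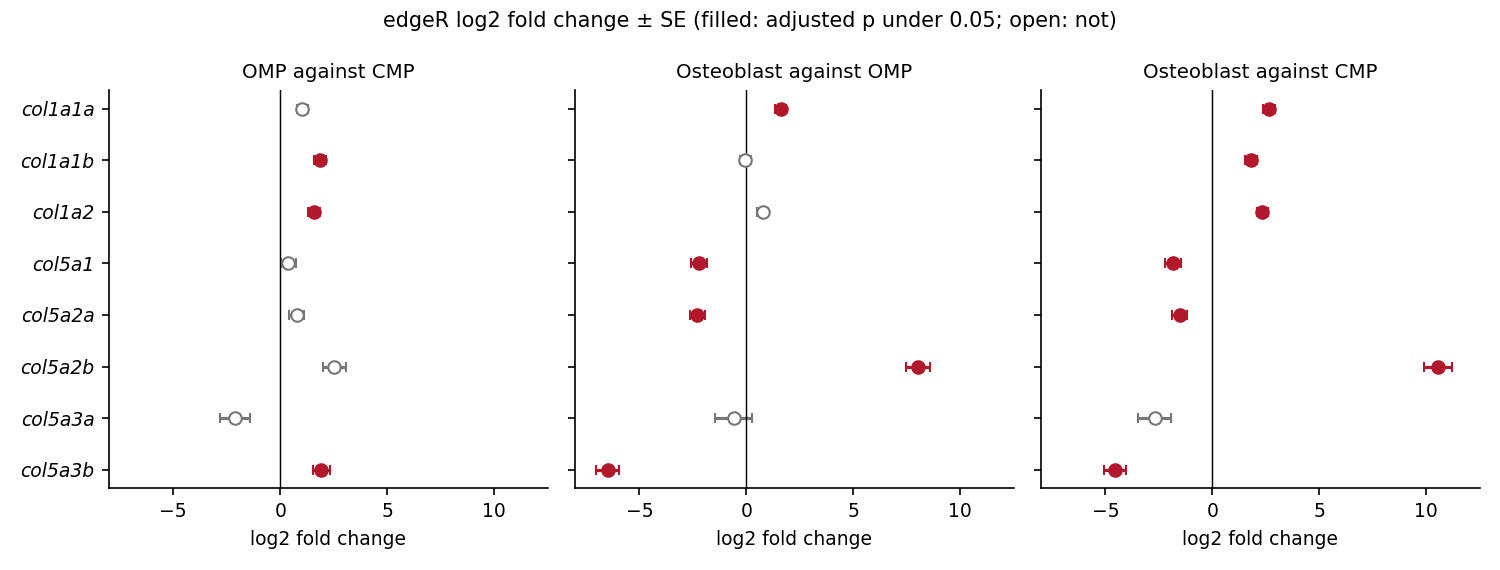
Log2 fold change with its SE for each gene in OMP against CMP, Osteoblast against OMP and Osteoblast against CMP, from edgeR. Filled points have an adjusted p under 0.05. In both Osteoblast panels col5a2b lies far right, at 8.03 and 10.56, and col5a3b far left, at -6.47 and -4.54, while the type I genes lie at or right of 0.

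The make-up of type V RNA per kilobase put these changes on 1 scale. In Osteoblast col5a2b made up 76.4 ± 2.24% of the 5 type V genes, col5a2a 13.6 ± 1.22% and col5a1 9.92 ± 0.957%. The OMP libraries held 57.5 ± 2.09% col5a2a, 39.1 ± 2.03% col5a1 and 3.11 ± 0.0271% col5a3b, with col5a2b at 0.240 ± 0.0999%. In CMP the shares were 52.0 ± 1.18% col5a2a, 46.3 ± 1.34% col5a1, 1.30 ± 0.289% col5a3b and 0.0646 ± 0.0196% col5a2b (SD, n = 2 in each group). The same pair, col5a2a and col5a1, thus made up most of type V in OMP and CMP, and col5a2b most of it in Osteoblast. The α3(V) genes together were 0.128% and 0.0302% of type V in Osteoblast, 3.13% and 3.20% in OMP and 1.504% and 1.76% in CMP. These α3(V) shares did not overlap between groups, and the exact permutation p was again 0.333, the smallest possible.

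**Figure D3:**
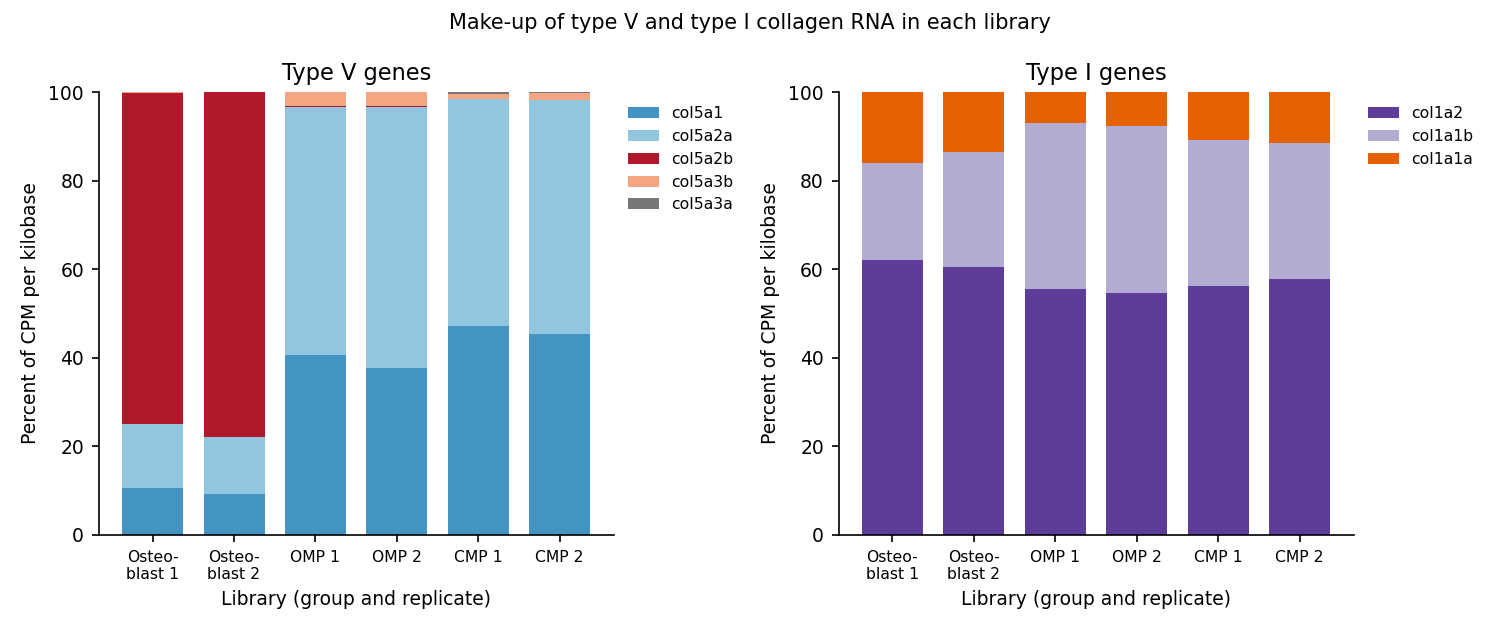
Percent of type V RNA (left) and of type I RNA (right) from each gene in each library, from CPM per kilobase of transcript, with the Osteoblast libraries first. In the left panel col5a2b fills 74.8% and 78.0% of the Osteoblast bars and under 1% of the others. The right panel shows the same 3 genes in every library, with col1a2 between 54.7% and 62.2%.

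The proportions of RNA for the α1(V) and α2(V) chains also differed between groups. The ratio of col5a1 to the 2 α2(V) genes together was 0.119 and 0.102 in Osteoblast, 0.720 and 0.637 in OMP and 0.923 and 0.858 in CMP, per kilobase. All 3 groups were separate, and α2(V) RNA exceeded α1(V) RNA most in Osteoblast. The type V total was 1224 ± 328 CPM per kilobase in Osteoblast, 1443 ± 372 in OMP and 936 ± 292 in CMP (SD, n = 2 each). Osteoblast overlapped both other groups in this total, and both OMP libraries lay above both CMP libraries. Type I reached 25161 and 23603 CPM per kilobase in Osteoblast, 17323 and 14761 in OMP and 5346 and 5034 in CMP, with no overlap. Type V was therefore a smaller part of the type I and V sum in Osteoblast, at 5.47% and 4.03%, than in OMP, at 8.97% and 7.40%, or CMP, at 17.6% and 12.7% (exact permutation p = 0.333 in each comparison). Type I exceeded type V by 20.5 ± 4.60 times in Osteoblast, 11.3 ± 1.67 times in OMP and 5.79 ± 1.57 times in CMP.

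Ordered by CPM per kilobase, the 3 highest group means were those of col1a2, col1a1b and col1a1a, in this order, in all 3 groups. In Osteoblast col5a2b was next at 931 ± 223, above col5a2a at 169 ± 59.6 and col5a1 at 123 ± 44.2, whose libraries overlapped. The α3(V) genes closed the Osteoblast order at 0.542 ± 0.632 for col5a3a and 0.541 ± 0.475 for col5a3b, again with overlap. OMP had col5a2a at 826 ± 184, col5a1 at 568 ± 175, col5a3b at 44.9 ± 11.2, col5a2b at 3.65 ± 2.33 and col5a3a at 0.740 ± 0.0369, without overlap between neighbours. The place of col5a2b was thus number 4 of the 8 in Osteoblast and number 7 in OMP. In CMP the means of col1a1a, col5a2a and col5a1 were 579, 485 and 436 CPM per kilobase, where the libraries of col5a2a overlapped those of each of the other genes and col1a1a lay above col5a1, and col5a3b at 11.8 ± 1.09 stood above col5a3a at 3.25 ± 1.97 and col5a2b at 0.634 ± 0.372.

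Part of the spread within groups followed the library number. The levels of col1a1a, col1a2, col5a1, col5a2a, col5a2b and col5a3b in CPM were each higher in library 1 than in library 2 in all 3 groups. Heat shock reads differed between the libraries in the same direction, as given above, and their part in the collagen levels was not tested. Within each library number the differences between groups kept their signs for 6 of the 8 genes in all 3 comparisons. The exceptions were col1a1b in Osteoblast against OMP, with log2 differences of -0.24 among libraries numbered 1 and 0.15 among those numbered 2, and col5a3a in the same comparison, with 0.44 and -2.43. For col5a2b the 2 differences were 7.66 and 8.54 in Osteoblast against OMP and 10.12 and 10.75 in Osteoblast against CMP.

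The likeness of 2 expression patterns was described by the root mean square difference of log2 CPM over the 6 libraries, after centring each gene on its own mean. Within the set, col5a1 and col5a2a were the closest pair at 0.176, and col5a2b and col5a3b the farthest apart at 6.97. In the type I group, col1a2 was 0.349 from col1a1b and 0.357 from col1a1a, and col1a1a and col1a1b were 0.692 apart. Among 4742 other genes of sufficient level, the nearest to col1a1a were acvrl1 at 0.120 and runx2b at 0.149, where acvrl1 encodes a receptor of the TGF-β family and runx2b an early osteoblast transcription factor. The nearest to col1a2 were ndnf at 0.102 and c1qtnf6b at 0.172, and c1qtnf6b was also the nearest to col1a1b, at 0.236. No candidate came as near to col5a1 as col5a2a did: the first was fstl3, a secreted follistatin relative, at 0.185. For col5a2a it was wisp2, which encodes a secreted matrix-associated protein, at 0.194.

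The nearest genes to col5a2b, col5a3a and col5a3b lay at larger differences. The measure is not scaled by the range of a gene's levels, which among the members was widest for col5a2b. The nearest to col5a2b was bglapl, an osteocalcin-like bone matrix gene, at 0.622, then prp at 0.870 and col10a1a, a type X collagen of bone-forming cells in fish, at 1.08. In CPM, bglapl was at 17314 and 28793 in Osteoblast, 105 and 31.2 in OMP and 23.4 and 21.6 in CMP. For col5a3b the nearest were mamdc2b at 0.453, pah, for phenylalanine hydroxylase, at 0.646 and nbl1, a secreted BMP antagonist, at 0.719. In CPM, mamdc2b was at 20.3 and 11.7 in Osteoblast, 929 and 911 in OMP and 224 and 339 in CMP. The nearest to col5a3a were thbs4a at 0.480 and the epidermal keratin gene krt15 at 0.591. In CPM, krt15 was at 125 and 45.1 in Osteoblast, 297 and 242 in OMP and 709.5 and 499 in CMP. Of the 7 epidermal markers, the 5 others than krt4 and krt15 were not called in Osteoblast against CMP, and the part of epidermal RNA in the col5a3a counts was not tested.

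Type XI chains are the nearest kin of type V, and col11a1b and col11a2 RNA were highest where col5a1 RNA was lowest. The level of col11a1b was 1479 ± 222 CPM in Osteoblast, 322 ± 86.6 CPM in OMP and 424 ± 62.3 CPM in CMP (SD, n = 2 each), and it was 4.59-fold higher in Osteoblast than in OMP (edgeR adjusted p = 0.00139) and 3.49-fold higher than in CMP (edgeR adjusted p = 0.00304). The paralog col11a1a was at 32.9 ± 1.70 CPM in Osteoblast, 115 ± 7.93 CPM in OMP and 52.1 ± 1.28 CPM in CMP. Like col5a1 it was lower in Osteoblast than in OMP (log2 fold change -1.80 ± 0.30, edgeR adjusted p = 0.00474). Unlike col5a1 it was not called in Osteoblast against CMP (-0.66 ± 0.30, edgeR adjusted p = 0.248). In OMP against CMP the log2 fold change of col11a1a was 1.14 ± 0.29 (edgeR adjusted p = 0.0962). Among the 3 genes for α1(V) and α1(XI), taken per kilobase, col5a1 held 40.7% and 33.4% in Osteoblast, 90.9% and 89.7% in OMP and 90.2% and 82.4% in CMP. The remainder was mostly col11a1b, at 61.4 ± 4.75% in Osteoblast, 6.92 ± 0.216% in OMP and 12.1 ± 5.04% in CMP. The third type XI chain gene, col11a2, was at 3629 ± 898 CPM in Osteoblast, 11.7 ± 5.09 CPM in OMP and 4.26 ± 5.09 CPM in CMP, with log2 fold changes of 8.31 ± 0.75 against OMP and 9.65 ± 0.80 against CMP (edgeR adjusted p = 1.17e-04 and 5.39e-05). Of 7 tested genes for other fibrillar collagens, 3 were higher and 4 lower in Osteoblast against OMP, beside 3.22% and 4.90% of all tested genes. Against CMP 3 were higher and 2 lower, beside 4.55% and 6.08%. In both comparisons col27a1a was among the higher and its paralog col27a1b among the lower.

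**Figure D4:**
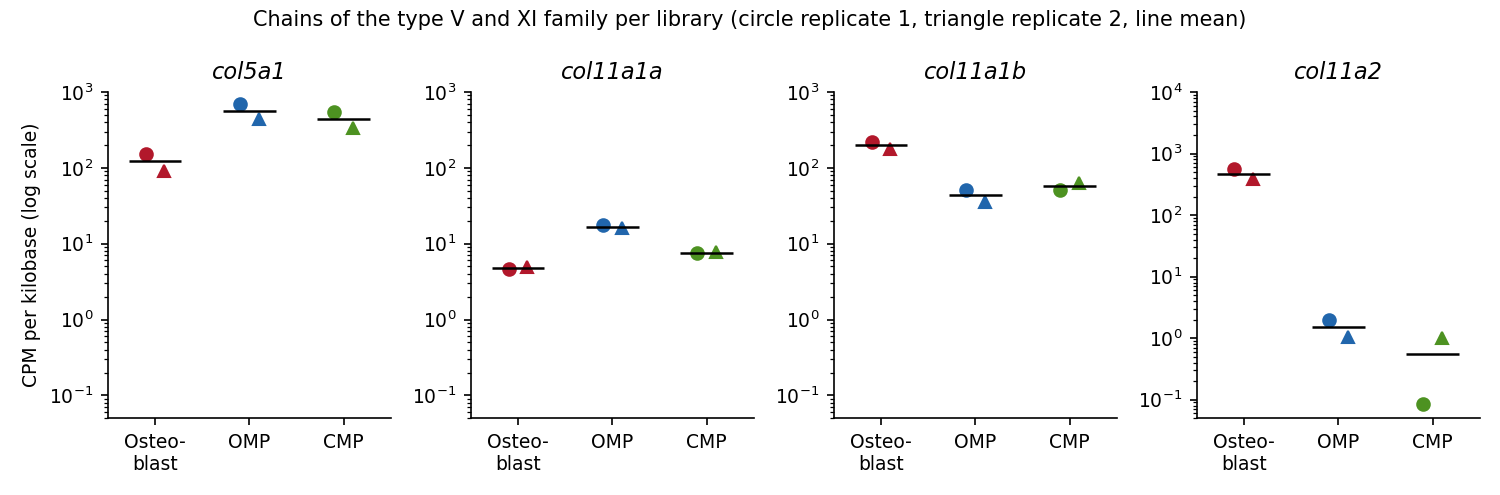
Level of col5a1 and of the 3 type XI chain genes in each library, in CPM per kilobase on a log axis, with Osteoblast, OMP and CMP from left to right. Circles are libraries numbered 1, triangles those numbered 2 and lines means. In Osteoblast col5a1 is at its lowest, with a mean of 123, while col11a1b and col11a2 are at their highest.

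Of 72 listed genes that make, trim, fold, cross-link or bind fibrillar collagen, 66 were tested. In Osteoblast against OMP 17 were higher and 17 lower, beside 3.22% and 4.90% of all tested genes. Against CMP 16 were higher and 14 lower, beside 4.55% and 6.08%. In OMP against CMP 7 were higher and 5 lower, beside 0.955% and 0.933%, and without CMP library 1 or CMP library 2 only 1 was higher and 0 lower. DESeq2 called 11 higher and 7 lower in that comparison. The median log2 fold change over the 66 was 0.22, 0.24 and 0.15 in these comparisons, next to the values near 0 for all genes given above. Of 9 tested genes for enzymes that trim procollagen or enhancers of that trimming, 3 were higher and 1 lower in Osteoblast against OMP. In Osteoblast against CMP 1 was higher and 0 lower. All genes called higher were enhancer genes, pcolcea, pcolceb and pcolce2a against OMP and pcolceb against CMP, while the 1 lower was adamts2. The calls of pcolceb held with each library left out in turn. That of pcolcea was lost without OMP library 1 or Osteoblast library 2, and pcolce2a rested on 10 and 33 reads in OMP. Of the enzyme genes, bmp1a, bmp1b and tll1 were called in no comparison. The smallest p in both was that of pcolceb, an enhancer of the cut that removes the C-propeptide. Its level was 849.5 ± 41.0 CPM in Osteoblast, 48.0 ± 17.6 CPM in OMP and 107 ± 52.8 CPM in CMP. It rose in Osteoblast against OMP (log2 fold change 4.14 ± 0.43, edgeR adjusted p = 2.86e-04) and CMP (2.99 ± 0.41, edgeR adjusted p = 9.93e-04). By contrast adamts2, whose mammalian product removes the N-propeptide of type I procollagen, fell in Osteoblast, at 88.7 ± 8.38 CPM, against 381 ± 15.2 CPM in OMP (log2 fold change -2.10 ± 0.28, edgeR adjusted p = 0.00135).

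For chain folding and export, 4 of 18 genes were higher in Osteoblast against OMP and 4 of 18 against CMP, with 0 lower in both, beside 3.22% and 4.55% of all tested genes higher. The 4 against OMP became 2 without any 1 of the 6 libraries, and the 4 against CMP stayed at 3 or 4. The genes that follow are those with the smallest p in each list. In mammals PLOD2 hydroxylates lysines of the collagen telopeptides, and plod2 was at 461 ± 4.04 CPM in Osteoblast, 25.4 ± 6.63 CPM in OMP and 88.2 ± 26.8 CPM in CMP. It rose in Osteoblast against both (log2 fold change 4.19 ± 0.36 and 2.39 ± 0.33, edgeR adjusted p = 9.90e-05 and 0.00110). A prolyl hydroxylase gene, p4ha1b, rose likewise (1.90 ± 0.35 and 2.71 ± 0.37, edgeR adjusted p = 0.00774 and 9.99e-04), though its call against OMP was lost without OMP library 1. In cross-linking, loxl4 of the lysyl oxidase family was at 762 ± 78.1 CPM in Osteoblast, 33.4 ± 3.06 CPM in OMP and 6.10 ± 0.113 CPM in CMP, and it rose in Osteoblast against both (log2 fold change 4.51 ± 0.30 and 6.96 ± 0.35, edgeR adjusted p = 3.33e-05 and 4.84e-06). Another of that family, loxl1, fell in Osteoblast against OMP (log2 fold change -3.45 ± 0.55, edgeR adjusted p = 0.00354). Of 7 tested cross-linking genes, 2 were higher and 1 lower in Osteoblast against OMP, beside 3.22% and 4.90% of all tested genes. Against CMP 3 were higher and 1 lower, beside 4.55% and 6.08%. Also called higher was loxa, against both groups (1.64 ± 0.35 and 3.34 ± 0.38, edgeR adjusted p = 0.0170 and 3.26e-04). So was loxl3a against CMP (3.48 ± 0.46, edgeR adjusted p = 8.20e-04). Without OMP library 1 or Osteoblast library 2, loxa was not called against OMP. Fibril-associated genes split by gene, with 4 of 17 higher and 9 lower in Osteoblast against OMP, beside 3.22% and 4.90% of all tested genes. The 4 higher were bgnb, sparc, dpt and bgna, for the proteoglycan biglycan (log2 fold change of bgna 5.36 ± 0.31, edgeR adjusted p = 1.79e-05). Among the 9 lower was postna (-5.15 ± 0.38, edgeR adjusted p = 4.48e-05), for the matrix protein periostin. A member of the same list, fmodb, for fibromodulin, had 0 reads in Osteoblast, 118 in OMP and 1104 in CMP, and was at least 29.4-fold and 259.9-fold lower in Osteoblast, with 3 reads over the group taken as the floor.

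Collagen receptors changed in both directions. The α10 integrin gene itga10, whose mammalian counterpart binds collagen on cartilage cells, was at 846 ± 62.7 CPM in Osteoblast, 52.4 ± 11.4 CPM in OMP and 15.6 ± 1.30 CPM in CMP. Its log2 fold change was 4.02 ± 0.31 in Osteoblast against OMP and 5.76 ± 0.34 against CMP (edgeR adjusted p = 5.37e-05 and 1.01e-05). The α11 integrin gene itga11b was at 8.20 ± 2.34 CPM in Osteoblast, 75.5 ± 19.7 CPM in OMP and 69.1 ± 3.11 CPM in CMP, and it fell in Osteoblast against both (log2 fold change -3.18 ± 0.39 and -3.05 ± 0.39, edgeR adjusted p = 7.88e-04 and 7.15e-04). In OMP against CMP the calls among cross-linking genes were loxl3a, loxl4 and loxa, each higher in OMP together with col1a1b and col1a2, and each was lost when at least 1 CMP library was left out. The 5 listed genes called lower in OMP, beside 7 higher, were plod2, col27a1a, fmodb, fn1b and dpt. For plod2 the log2 fold change was -1.80 ± 0.34 (edgeR adjusted p = 0.0257), a call lost without any 1 of the 4 OMP and CMP libraries.

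**Figure D5:**
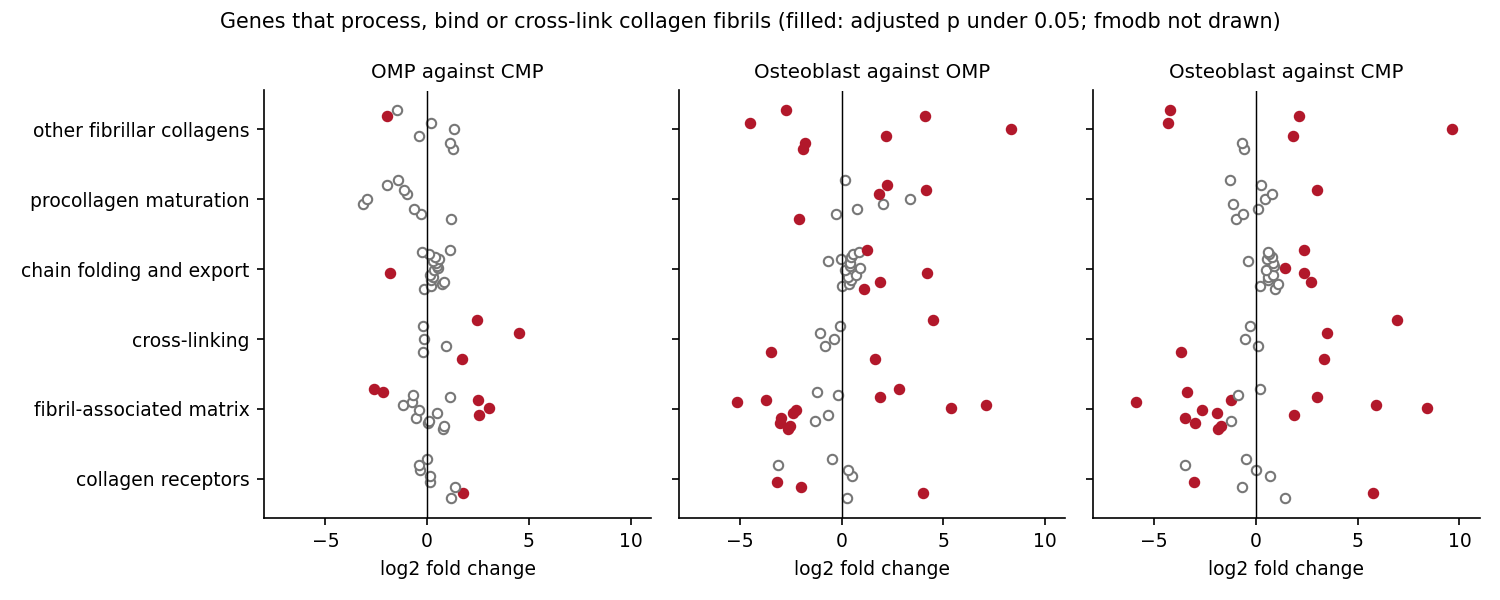
Log2 fold change from edgeR of the listed genes that act with fibrillar collagens, in 6 groups from other fibrillar collagens to receptors, for OMP against CMP, Osteoblast against OMP and Osteoblast against CMP. Each point is a gene, filled where the adjusted p is under 0.05, and fmodb, with 0 reads in Osteoblast, is not drawn. Filled points lie on both sides of 0 in the Osteoblast panels, 17 higher and 17 lower against OMP with fmodb counted.

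Transcripts of one gene shared reads in the deposited table. The second transcripts of col1a2 and col5a3a held 99.8% and 98.7% of the reads of the kept one, and both of col5a3b held 3082 reads. For col1a1a a second entry of the same accession held 1371 and 1020 reads in Osteoblast, 242 and 412 in OMP and 121 and 119 in CMP, or 1.35% of the kept entry over the 6 libraries. Paralogs such as col1a1a and col1a1b may share reads, and the labels do not say how these were assigned, so the levels of such pairs carry that uncertainty.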

How the data were processed

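The authors deposited 1 table of 75811 transcripts. It holds raw counts, with RPKM and TPM values that the authors made from them and deposited beside them. RPKM was not used, and TPM only as an alternative for the shares. Per the submitters' processing notes, HISAT2 2.2.1, featureCounts 2.0.3 and GRCz11 were used. No label states the strand setting of the counting, so overlapping antisense genes cannot be told apart.

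The 6 transcripts without a gene name, all transgenes, were kept under their own names, except 2 with empty cells, which were left out. The main test was edgeR's quasi-likelihood test (version 4.0.16, R 4.3.3; TMM scaling, filterByExpr, two-sided, Benjamini-Hochberg adjustment) in 1 fit of 6 libraries, with 3 residual degrees of freedom and a biological coefficient of variation of 0.377. The script was tested on simulated data. SE is the absolute log2 fold change over the square root of F. CPM per kilobase uses the deposited transcript length.

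Named genes were the 8 members, up to 3 genes per pathway list and comparison by smallest p, and the 3 nearest genes to each member among those of mean log2 CPM 4 or more. Members and lists were chosen with earlier results of these data known. Alternatives were DESeq2 1.42.0 (Wald test, size factors), no filter, a replicate block, 2 groups only, summed transcripts, other scaling, libraries left out, and, chosen after seeing the data, edgeR's older dispersion estimate. Shares used exact permutation tests. Symbols of 7 of the 8 genes were found by accession in a RefSeq table of GRCz12tu, used for names only. No sequences or coordinates were used.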

Additional observations from a re-analysis of the deposited data

How the results depend on the processing

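Of 147 values of counts and shares under the alternatives, 140 kept their side or stayed close to the reported count and 7 moved. For the shares, whose groups did not overlap, leaving out 1 library could not change the side, so those values say nothing on stability. Shares from the deposited TPM repeat those from CPM per kilobase, because the scaling by library cancels in a share. They say nothing on stability either. The number of members higher in OMP against CMP was 3, became 5 without the filter on low counts and 5 with the DESeq2 Wald test, and ranged from 0 to 4 with 1 library left out. It was 0 without CMP library 1 and 0 without CMP library 2. The number lower in Osteoblast against CMP was 3 and ranged from 1 to 4 with 1 library left out, with 1 without CMP library 1 or Osteoblast library 2. Single members reversed in 4 cases: col5a1 in OMP against CMP without OMP library 1 (-0.00023), col1a1b in Osteoblast against OMP without OMP library 1 (0.11) and without Osteoblast library 1 (0.058), and col5a3a in Osteoblast against OMP without Osteoblast library 2 (0.43). With 1 library left out these 3 log2 fold changes ranged from -0.00023 to 0.79, from -0.16 to 0.11 and from -2.90 to 0.43. None of these was called, and the cause was not tested. Of 336 member values 302 kept their call, 17 gained and 13 lost it. For col5a3b in OMP against CMP it was also lost with the older dispersion estimate (edgeR adjusted p = 0.0981) and with summed transcripts (0.0916). Both transcripts of col5a3b held equal counts in each library, so summing counted its reads more than once and says little on this call. For the other named genes 577 of 630 kept it and 53 lost it. With 1 library of a group left, the lone sample was assumed to vary like the other groups.

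Over all genes, the 128 higher and 125 lower in OMP against CMP became 201 and 193 without the filter, 229 and 196 with DESeq2, 106 and 83 with the older dispersion estimate, and 8 and 5 or 6 and 6 without CMP library 1 or 2. Leaving out any 1 library of the groups compared lowered both the 431 higher and the 656 lower in Osteoblast against OMP. The same held for the 610 higher and 814 lower in Osteoblast against CMP. Genes such as col5a3a, with 22 and 3 reads in the Osteoblast libraries, rest on few reads. The part of depth in their spread was not tested.

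Library numbers are the same across groups, but the labels do not say that they mark shared fish or days. Deviations from the group means of same-numbered libraries correlated at 0.382 between Osteoblast and OMP, 0.296 between Osteoblast and CMP and 0.337 between OMP and CMP, over 13399 genes. With a replicate block, members called higher in OMP against CMP numbered 6, col1a1a (edgeR adjusted p = 0.00311), col5a2a (0.0121) and col5a2b (0.00151) among them. In Osteoblast, col1a2 was then called against OMP (0.00574) and col5a3a against CMP (0.00812). Of the pathway genes, 20 were higher and 21 lower in Osteoblast against OMP, 25 and 19 against CMP, and 16 and 11 in OMP against CMP, with 6 and 11 chain folding genes higher in Osteoblast against OMP and CMP. Calls over all genes with the block were 794 higher and 1109 lower in Osteoblast against OMP, 1062 and 1359 in Osteoblast against CMP, and 417 and 400 in OMP against CMP.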
